A study of Mus musculus with 13 samples.

Results

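In the mouse pro-B cell line Ba/F3, 207 genomic regions were called for STAT5A, for LSD1 and for HDAC3, each both without and with the cytokine IL3. They were chosen by merging the 6 pooled region lists, 1 per protein and condition, wherever regions overlapped by 1 bp or more on the assembled chromosomes, and by keeping the merged regions that held a region of every list. The 207 members were 0.575% of 35997 merged regions. The 6 pooled lists thus chose the members, so the members' scores in those lists are given as a description, with no test and no p-value.

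The study profiled the 3 proteins by chromatin immunoprecipitation and sequencing (ChIP-seq) of formaldehyde-fixed chromatin. Ba/F3 cells depend on IL3 for growth, and all groups came from cultures kept in 1 ng/mL IL3. The 3 groups without IL3 had been deprived of it for 6 h. The 3 groups with IL3 went through the same 6 h of deprivation, after which 10 ng/mL IL3 was added for 30 min. Each of the 6 groups had 2 biological replicates, each with its own region list, and the pooled list of a group was called on the merged library. All 12 libraries came from 1 cell line, without a knockout or transgene, and with 2 replicates a group a permutation test of a condition could not reach significance.

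STAT5A is a transcription factor that is phosphorylated by JAK2 after IL3 binds its receptor, moves to the nucleus and binds palindromic TTC and GAA half-sites. It drives survival and growth genes such as Pim1 and Id1 in pro-B cells. LSD1 (Kdm1a) removes methyl groups from histone H3 lysine 4 and acts within CoREST complexes. HDAC3 is a histone deacetylase that is active within corepressor complexes. LSD1 and HDAC3 are known mainly as corepressor subunits.

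Each region carried 1 score, as the authors deposited it. What the score counts is not stated. Low scores were whole multiples of 1 step within a list, so scores were compared by rank or percentile within a list. The pooled lists held from 1208 regions (HDAC3 with IL3) to 17087 (LSD1 with IL3) on assembled chromosomes, and the replicate lists from 234 to 15783. Some libraries stood apart from their partners. The second HDAC3 replicate with IL3 had 234 regions, and 79.5% of its summed score lay in 1 region. The first STAT5A replicate without IL3 had 352 regions against 4504 in the second, and the first LSD1 replicate without IL3 had 1005 against 15783. Without the second HDAC3 replicate with IL3, that is with the first replicate's list in place of the pooled one, 156 regions met the rule in place of 207. The number was 17 without the first HDAC3 replicate with IL3, 77 without the first HDAC3 replicate without IL3, 55 without the second and 134 without the first STAT5A replicate without IL3, and 93 without the second LSD1 replicate without IL3. It lay between 148 and 206 without any other single library.

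Only 25 members reached into the promoter window of a gene, from 250 bases before to 50 after its start, in RefSeq's table for GRCm38.p6, the mm10 assembly. They touched 29 of 32851 windows, of 27 genes. Stretches before the start that lay within a member are shown here, to let the base composition of high-ranked and low-ranked members be seen side by side. Each is given 5′ to 3′ on the gene's strand, the + strand in all of them, and capitals mark a match to any of the motifs named after them. The member at Slc18a2, which encodes the vesicular monoamine transporter of mast cells and neurons, was 13th of the 207 by mean percentile over the 6 lists. That at the non-coding gene Gm33078 was 22nd, at Sde2 73rd, at 4930573C15Rik 80th, at the mismatch repair gene Msh6 155th, at the ATP-gated channel gene P2rx1 172nd, and at the dynein subunit gene Dync1li1 205th.
Slc18a2, chr19:59260696-59260877: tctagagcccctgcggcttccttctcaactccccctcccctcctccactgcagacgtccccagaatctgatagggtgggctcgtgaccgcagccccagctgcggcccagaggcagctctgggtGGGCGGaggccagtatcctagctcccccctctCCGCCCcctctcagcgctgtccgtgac
Gm33078, chr11:57911859-57912081: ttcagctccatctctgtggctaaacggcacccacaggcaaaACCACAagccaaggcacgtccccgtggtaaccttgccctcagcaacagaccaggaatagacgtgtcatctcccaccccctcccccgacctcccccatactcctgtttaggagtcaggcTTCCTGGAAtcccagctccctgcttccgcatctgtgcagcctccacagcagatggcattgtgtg
Sde2, chr1:180850901-180851075: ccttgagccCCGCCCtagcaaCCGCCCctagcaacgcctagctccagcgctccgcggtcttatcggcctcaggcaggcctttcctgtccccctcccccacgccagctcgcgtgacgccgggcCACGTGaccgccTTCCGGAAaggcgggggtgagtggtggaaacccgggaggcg
4930573C15Rik, chr5:146703682-146703836: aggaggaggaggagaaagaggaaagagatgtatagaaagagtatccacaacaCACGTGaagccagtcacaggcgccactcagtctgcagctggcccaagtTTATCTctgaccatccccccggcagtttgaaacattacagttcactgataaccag
Msh6, chr17:87974800-87975042: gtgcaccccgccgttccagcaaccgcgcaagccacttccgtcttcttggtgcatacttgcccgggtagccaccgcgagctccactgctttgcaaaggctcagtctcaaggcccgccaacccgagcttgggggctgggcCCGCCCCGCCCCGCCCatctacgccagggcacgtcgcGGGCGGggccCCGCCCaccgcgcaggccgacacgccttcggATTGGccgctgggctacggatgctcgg
P2rx1, chr11:72998895-72999045: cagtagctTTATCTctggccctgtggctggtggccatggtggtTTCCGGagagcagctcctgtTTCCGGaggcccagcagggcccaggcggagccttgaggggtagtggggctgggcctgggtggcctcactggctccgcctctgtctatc
Dync1li1, chr9:114688661-114688830: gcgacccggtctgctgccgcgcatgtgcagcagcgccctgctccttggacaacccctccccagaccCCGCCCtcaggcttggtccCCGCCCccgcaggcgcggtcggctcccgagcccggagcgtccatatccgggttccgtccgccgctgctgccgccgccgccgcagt

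These stretches ranged from 49.7% G and C at 4930573C15Rik to 75.9% at Dync1li1, and from 3 CpG dinucleotides to 27 at Msh6. Over the 29 windows the median was 60.7% G and C with 15 CpGs. The median was 63.3% with 24 CpGs in the 7628 windows that other merged regions touched, and 52.7% with 7 CpGs over all windows. Motifs were searched on both strands, and matches of different motifs may overlap. The GATA motif AGATAA was in 8 of the 29 windows (27.6%), each touched by a different member, against 5.43% of the windows touched by other merged regions and 11.2% of all windows. The 8 windows were those of Slc18a2, Ift46, 4930573C15Rik, Mylk3, Gm40696, 1810058I24Rik, Gm28857 and P2rx1. A match was counted anywhere in the window. At Slc18a2 and Gm40696 the stretch before the start that the member covered held no GATA match. The STAT motif TTCNNNGAA was in 4 windows (13.8%, against 7.77% and 8.3%), at 3 members: Gm33078, Gm40696 and the shared start of Ncaph2 and Lmf2. The shorter string TTCTNGAA was in 0 windows. The ETS motif CCGGAA was in 10 windows (34.5%, against 33.8% and 14.9%) and the SP and KLF motif GGGCGG in 15 (51.7%, against 70.4% and 35.7%). The E-box CACGTG was in 5 windows (17.2%, against 10.8% and 7.15%), CCAAT in 6 (20.7%, against 35.9% and 37.4%) and the RUNX motif TGTGGT in 6 (20.7%, against 12.5% and 16.8%). The cyclic AMP element TGACGTCA was in 3 windows (10.3%, against 3.62% and 1.79%), at 2 members. TATAAA was in 2 windows (6.9%, against 5.11% and 13.6%). The NRF1 motif was in 2, the CTCF string CCACNAGG in 1, the IRF motif in 1, and the YY1 and ZBTB33 motifs in 0. These are letter matches in windows of 25 members, a description with no test.

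Most members lay away from the ends of genes. The centres of 31 members (15%, 95% Wilson interval 10.8 to 20.5%) were within 1 kb of either end of a protein-coding gene, against 32.6% of all merged regions. The share was 28.5% of regions held by 1 list, 39.1% for 2 lists, 42% for 3, 41.7% for 4 and 27.3% for 5. The interval of the 207 members thus lay below the interval of every other class. Near a gene start the gap was wider: 19 of the 205 members on chromosomes with start annotation (9.27%, interval 6.01 to 14%) were within 1 kb of a start, against 29.6% of all merged regions. Inside a protein-coding gene lay 84 members (40.6%, interval 34.1 to 47.4%), against 57.9% of all merged regions. More than 50 kb from any gene end lay 46 members (22.2%, interval 17.1 to 28.4%), against 12.4%. The median distance to a gene end was 14223 bp for the members and 5317 bp over all merged regions. These intervals cover counting only, since regions near each other are not independent.

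**Figure D1:**
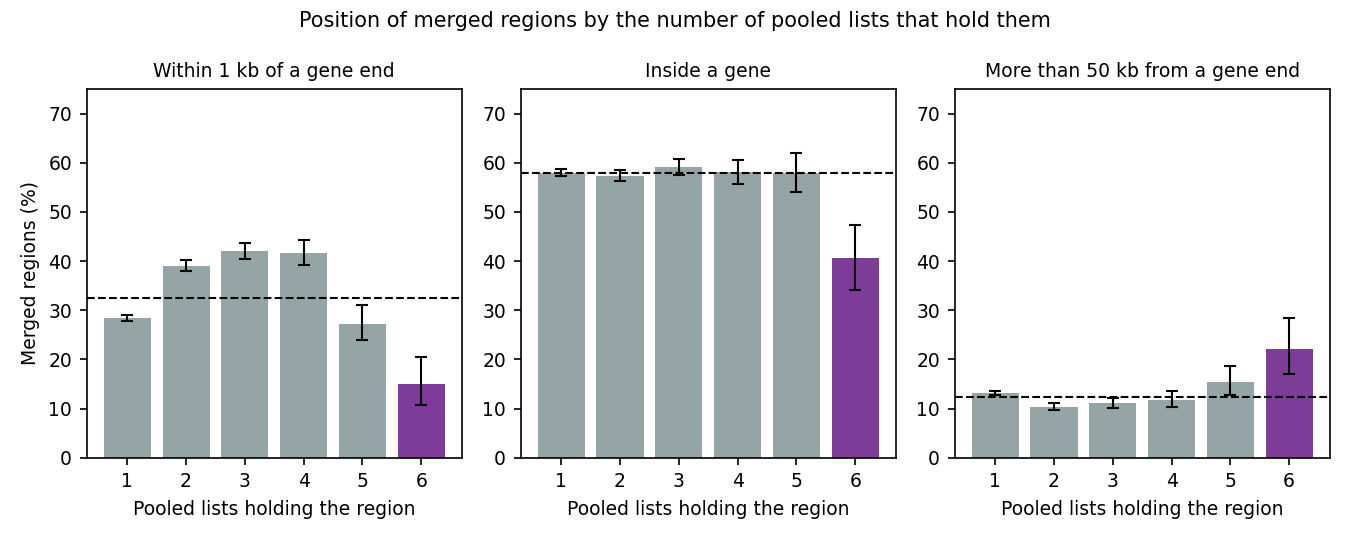
Share of merged regions (%) within 1 kb of a protein-coding gene end, inside a protein-coding gene, and more than 50 kb from a gene end, by the number of pooled lists that hold the region (1 to 6); bars give the share, error bars the 95% Wilson interval, and dashed lines the share over all 35997 merged regions. The 207 members (purple, 6 lists) are at 15%, 40.6% and 22.2%.

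Position varied with score among the members. Of the 50 members with the highest mean percentile over the 6 lists, 8% were near a gene end (interval 3.15 to 18.8%), and of the 50 lowest 32% (interval 20.8 to 45.8%). Single lists did not share the members' position: the regions of the STAT5A list without IL3 that were not members were near a gene end in 56.5% of cases, and those of the STAT5A list with IL3 in 25.1%. For LSD1 the shares were 34.6% without and 41.1% with IL3, and for HDAC3 27.1% and 25.2%. The share near a gene end ranged from 7.27% to 29.4% of the members when 1 library was left out. The 29.4% rested on the 17 members left without the first HDAC3 replicate with IL3, and the other 11 such shares were at or below 19.4%.

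Members scored high in the lists, with the highest median percentiles in those of LSD1. Their median percentile was 96.2 in the LSD1 list without IL3 and 96.1 with IL3, and 158 and 164 of the 207 were in the upper 10% of these lists. In the HDAC3 list without IL3 the median percentile was 89.7, and 99 members were in the upper 10%. In the HDAC3 list with IL3 the median was 75.4, in the STAT5A list without IL3 77.3 and in the STAT5A list with IL3 75.5, with 57, 46 and 54 members in the upper 10%. In every list the median percentile was highest for regions held by all 6 lists. For LSD1 with IL3 it went from 28.7 for regions of 1 list to 87.3 for regions of 5 lists and 96.1 for the members. For STAT5A with IL3 it was 49.9 for regions of 1 list, 62.9 for 5 lists and 75.5 for the members. The lists differ in length, so the order of the proteins depends on the measure. Members with rank 100 or better numbered 36 and 36 in the LSD1 lists without and with IL3. They numbered 63 and 57 in the HDAC3 lists and 14 and 9 in the STAT5A lists.

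**Figure D2:**
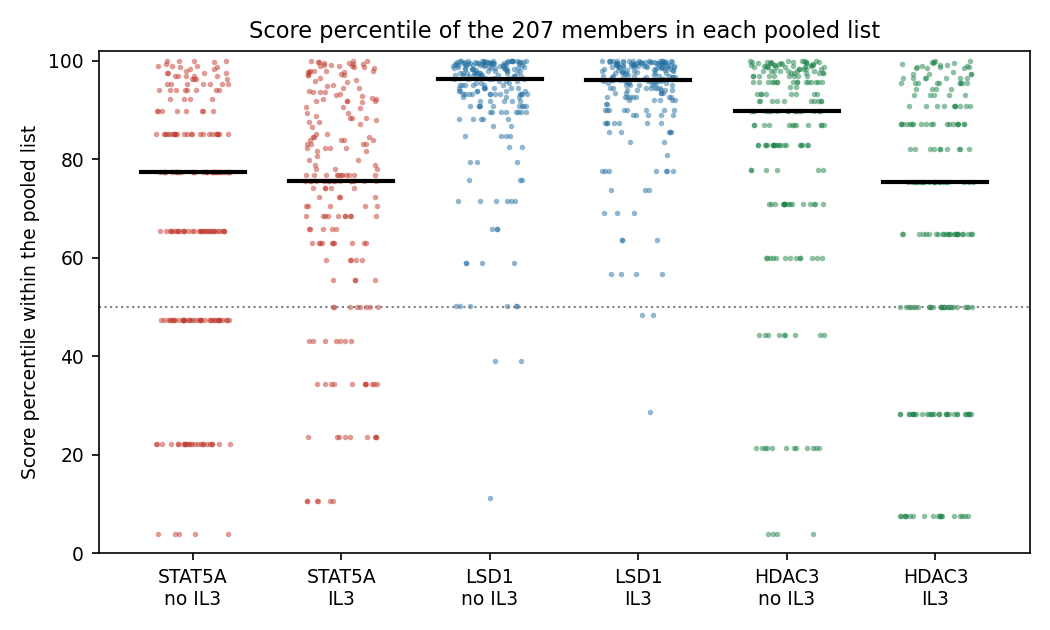
Score percentile of each of the 207 members within each of the 6 pooled lists (points, 1 per member, spread sideways for view; black line, median; dotted line, the middle of the list). Medians are 96.2 and 96.1 in the LSD1 lists and between 75.4 and 89.7 in the STAT5A and HDAC3 lists.

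The members made up 17.1% of the regions and 22.7% of the summed score of the HDAC3 list with IL3, the shortest list. They made up 6.18% of the regions and 11.2% of the summed score of the HDAC3 list without IL3, and 4.1% and 5.36% of the STAT5A list without IL3. In the 3 long lists they were 1.33% of the regions or fewer, with 2.6% of the summed score for STAT5A with IL3, 3.8% for LSD1 without and 3.76% for LSD1 with IL3. Members were all 10 of the regions with rank 10 or better in the HDAC3 list without IL3, 10 of 12 in the LSD1 list with IL3 and 9 of 12 in the HDAC3 list with IL3, counting ties. They were 6 of 10 for LSD1 without IL3, 5 of 10 for STAT5A without IL3 and 0 of 10 for STAT5A with IL3, where the best member ranked 15th. Only 13 members were in the upper 10% of every list, and 83 above the middle of every list.

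Members are named here by the protein-coding gene with the nearest end, which is a label of position only. The highest mean percentile was that of a region of 176 bp at chr11:109011824-109011999, in no gene and 61128 bp from Axin2, which encodes a scaffold of the β-catenin destruction complex. It ranked first in 5 of the 6 lists. Its scores were 215.8 for STAT5A without and 228.6 with IL3, 639.1 and 408.1 for LSD1, and 326.9 and 252.9 for HDAC3, and its rank in the STAT5A list with IL3 was 314. The region near Pex2 (chr3:5860586-5860764), a peroxisome biogenesis gene 282079 bp away, ranked 5, 1092, 13, 10, 3 and 3 in the lists in the same order. A region inside Cdk8, the kinase of the Mediator complex, ranked 3, 1179, 7, 7, 2 and 2, and a region 24379 bp from Rpp21, a ribonuclease P subunit gene, ranked 7, 1179, 25, 18, 4 and 4. All 4 ranked lowest in the STAT5A list with IL3, but their percentiles there were 97.9, 92.9, 92.3 and 92.3, in the upper 10% of that list.

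Other members near the top also differed in rank between the lists. The region 69 bp from Nfe2, a haematopoietic transcription factor gene, at chr15:103258255-103258689, ranked 121 and 336 for STAT5A, 324 and 92 for LSD1, and 20 and 7 for HDAC3. A region inside Emilin2, an extracellular matrix gene, ranked 213 and 460, 40 and 150, and 5 and 10. A pair of regions inside Gse1, whose product is found with CoREST, lay within 2054 bp and had ranks of 9 and 8 for HDAC3 without IL3 and of 13 and 18 with IL3. For STAT5A their ranks were 69 and 46 without IL3 and 1299 and 1643 with IL3. A pair inside Zfpm1, the gene of the GATA cofactor FOG1, lay within 5829 bp. The first of them, at chr8:122309373-122309594, ranked 28 and 13 for LSD1, and the second, at chr8:122314995-122315201, ranked 37 and 2. For STAT5A the first ranked 52 and 1785, and the second 213 and 3067. The region near Incenp, a chromosomal passenger gene, ranked 3rd in both LSD1 lists, with ranks of 144 and 3198 for STAT5A. The remaining 9 of the 20 highest lay near 1700057G04Rik, Gsdmc, S1pr1, Slc18a2, Zfp36l2, Rpn1, Nt5e, Il1rapl1 and Asic1. Of the 20, only those at Nfe2 and Slc18a2 lay within 1 kb of a gene end.

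The 5 lowest mean percentiles lay mostly at gene ends. They were 27.2 at Rps20, a ribosomal protein gene, 39.7 inside Srcin1, 42.7 at Dync1li1, 44.3 at Lmf2 and 44.7 inside Slc43a2. The Rps20, Dync1li1 and Lmf2 regions were 78, 22 and 77 bp from a gene end. At Rps20 the scores were 14.7 and 15.0 for STAT5A, 25.4 and 12.8 for LSD1, and 17.8 and 12.3 for HDAC3. No member had the lowest score of any list.

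The rule's border ran mainly through 2 lists. Of the 607 merged regions held by 5 lists, 326 lacked the HDAC3 list with IL3 and 179 the STAT5A list without IL3. A further 64 lacked HDAC3 without IL3, 36 STAT5A with IL3, and 1 each an LSD1 list: Npas4 without and Selenot with IL3. Just outside the rule were a region 1253725 bp from Zeb2 and 1 near Olfm3, with ranks of 47 and 103 for STAT5A with IL3 and no region for STAT5A without it. Regions at Pdzd8 and Lrig1 lacked only STAT5A with IL3, and those 141 bp from an end of Tbl1xr1 and near Nek6 only HDAC3 without IL3. Of those that lacked HDAC3 with IL3, a region inside Dnah8 ranked 14 for HDAC3 without IL3. Another, near Gm40369, was called in both single replicates with IL3 though not in their pooled list. Just inside, the lowest member score in the HDAC3 list with IL3 was 12.3, as at Rps20, where that list's lowest score was 10.5. The members held 1 region of each list, except that those at Actg1 and Zfand5 held 2 of the LSD1 list with IL3. In 155 members at least 1 base was shared by regions of all 6 lists, and the other members were joined through partial overlaps.

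Replicate lists supported the members unevenly. The replicate reads are part of the pooled libraries, so this support is not independent of the rule, and the share of all merged regions that overlapped the same list is given as the background. For LSD1 with IL3, 183 members were called in the first replicate (88.4%, background 17%), 205 in the second (99%, background 30.5%) and 181 in both (background 10.8%). For LSD1 without IL3, 93 were called in the short first list (background 2.69%), 206 in the second (background 40.7%) and 93 in both (background 2.26%). Every member thus had at least 1 LSD1 replicate with IL3, and 206 had 1 without IL3.

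For STAT5A with IL3, 168 members were called in the first replicate (81.2%, background 32.3%), 145 in the second (70%, background 15.3%) and 119 in both (background 6.16%). For STAT5A without IL3, 49 were called in the first (23.7%, background 0.886%), 126 in the second (60.9%, background 11.1%), 24 in both (background 0.239%), and 56 in neither. For HDAC3 without IL3, 176 were called in the first (85%, background 4.43%), 76 in the second (36.7%, background 1.38%) and 69 in both (background 0.489%). For HDAC3 with IL3, 139 were called in the first (67.1%, background 1.83%), 15 in the second (7.25%, background 0.297%), 11 in both (background 0.0472%) and 64 in neither. All shares were above the background, which also counts merged regions without a region of that pooled list. Against the other regions of the same pooled list, the members' share was higher in 11 of the 12 lists. The exception was the second STAT5A replicate without IL3, with 60.9% of the members (interval 54.1 to 67.3%) and 66.1% of the others. In the second HDAC3 replicate with IL3 the shares were 7.25% (interval 4.44 to 11.6%) and 6%, so in these 2 lists the members' interval held the others' share.

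**Figure D3:**
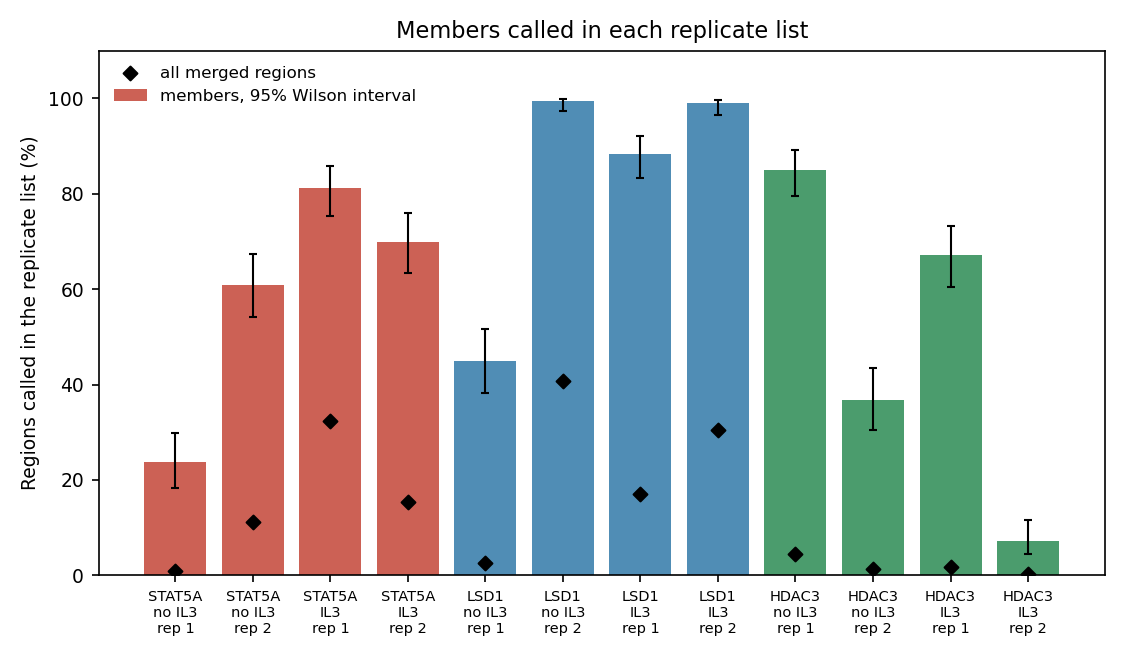
Share (%) of the 207 members called in each of the 12 replicate lists (bars, with 95% Wilson intervals; colours mark the protein) and of all 35997 merged regions (diamonds). The members' shares run from 7.25% in the second HDAC3 replicate with IL3 to 99.5% in the second LSD1 replicate without IL3.

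A large part of what both replicates called was within the members where lists were short. Members were 11 of the 17 merged regions called in both HDAC3 replicates with IL3 (64.7%), 69 of 176 in both without IL3 (39.2%) and 24 of 86 in both STAT5A replicates without IL3 (27.9%). For LSD1 and for STAT5A with IL3 the shares were between 4.66% and 11.4%. Each member was called in 4 to 12 replicate lists, with a median of 7. In all, 87 members (42%, background 0.311%) were called in at least 1 replicate of every group, 85 lacked any replicate in exactly 1 group (41.1%, background 1.08%), and 35 in more groups. Among the 607 merged regions held by 5 pooled lists these shares were 3.13% and 35.3%. Regions outside the members lack a pooled call in at least 1 group, and the replicate reads are part of the pooled libraries. Their lower shares thus follow in part from the rule and do not measure the members' support. The sole member called in all 12 replicate lists was the first Zfpm1 region (background 0.00278%, the same 1 region). Its scores in replicates 1 and 2 were 38.3 and 54.3 for STAT5A without IL3, 55.9 and 120.0 with IL3, 181.4 and 240.7 for LSD1 without IL3, 141.1 and 202.5 with IL3, 124.1 and 44.1 for HDAC3 without IL3, and 35.6 and 25.7 with IL3. No member was without replicate support altogether. Without the second HDAC3 replicate with IL3, 7 members were called in all 11 remaining lists, a count for which no background was taken.

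The 4 regions near or in Axin2, Pex2, Cdk8 and Rpp21 stood apart in this support. Each was called in 10 replicate lists, and the missing ones were the same for all 4: the first STAT5A replicate without and with IL3. In the second STAT5A replicates the Axin2 region scored 312.3 without IL3, the highest of its list, and 420.1 with IL3, where it was the 3rd highest. The first replicate with IL3 was a list of 13572 regions with scores down to 14.9, and did not hold it. In the second HDAC3 replicate with IL3, the library dominated by 1 region, these 4 regions ranked 15, 14, 20 and 34, and the next member, inside Gse1, ranked 38. Counting all members, 22 were called in both second and neither first STAT5A replicate (10.6%, background 3.28%), and 5 in both first and neither second (2.42%, background 0.206%). In the 607 regions of 5 pooled lists the shares were 21.7% and 1.98%, so the first pattern outnumbered the second outside the members too. The first lists held 352 and 13572 regions and the second 4504 and 6280. The 22 also held regions inside Runx1 and Arid3a, and gene-end regions at Msh6, Kat6a, Gatad2b and Rps20. Whether the libraries with the same replicate number were made together is not given in the sources used here, and its part in these calls was not tested.

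The same 4 regions were among the 5 most closely aligned members. The centres of the 6 regions spanned 5 bp at Axin2, 4 bp at Cdk8, 10 bp at Rpp21 and 13 bp at Pex2, where the median over members was 107 bp and the widest 492 bp, at Zfand5. The other members under 25 bp were inside Il1rapl1, a region on the X chromosome with 8 bp, and near Rplp1, with 21 bp. Of these 6 members, 0 were called in the first STAT5A replicate without IL3 and 1 in the first with IL3, but all 6 in both second STAT5A replicates. The other 201 members were called in 24.4%, 83.1%, 59.7% and 69.2% of cases in these 4 lists. All 6 were also called in every LSD1 replicate and both HDAC3 replicates without IL3, against 34.8% to 99.5% of the other 201. For HDAC3 with IL3, 5 were called in the first replicate (66.7% of the other 201) and 4 in the second (5.47%). The threshold of 25 bp was set after the values were seen. Across the 207 members, centre span and mean percentile had a Spearman's rho of -0.32. The points share libraries, so this is a description. Between any 2 lists, the members' centres were a median of 29 to 47 bp apart, against 41 to 62.5 bp in other merged regions that both lists held. LSD1 without and with IL3 were the closest pair, at 29 against 42 bp. STAT5A and HDAC3, both with IL3, were the widest pair, at 47 against 48 bp, so their members were hardly closer.

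**Figure D4:**
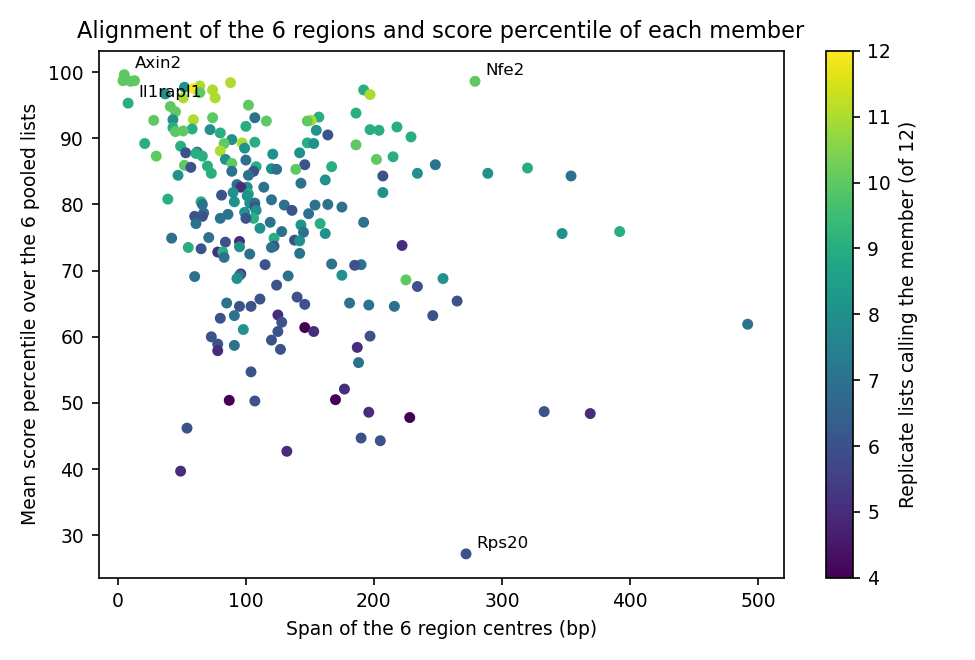
Span of the 6 region centres (bp, horizontal) against the mean score percentile over the 6 pooled lists (vertical) for each of the 207 members, coloured by the number of replicate lists (of 12) that call it. Members with spans under 25 bp sit at the upper left, Nfe2 combines a high percentile with a span of 279 bp, and Rps20 is lowest at 27.2.

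The order of the members differed more between the conditions in the STAT5A lists than in those of LSD1 and HDAC3, a difference between proteins that was not tested. Scores of separate lists are not on 1 scale, and the lists differ in length, so percentiles across them show no change; the order among the 207 members was compared instead. Spearman's rho between the orders without and with IL3 was 0.19 for STAT5A, 0.77 for LSD1 and 0.56 for HDAC3 (n = 207, description only, since the regions share libraries). Of the 20 highest members without IL3, 1 was among the 20 highest with IL3 for STAT5A, 15 for LSD1 and 14 for HDAC3. Between the replicates of a group, rho was 0.12 for STAT5A without IL3 (24 members in both lists), 0.48 with IL3 (119), 0.63 and 0.76 for LSD1 (93 and 181), and 0.47 and 0.83 for HDAC3 (69 and 11). The lowest rho between conditions and the lowest between replicates thus both involved STAT5A without IL3.

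**Figure D5:**
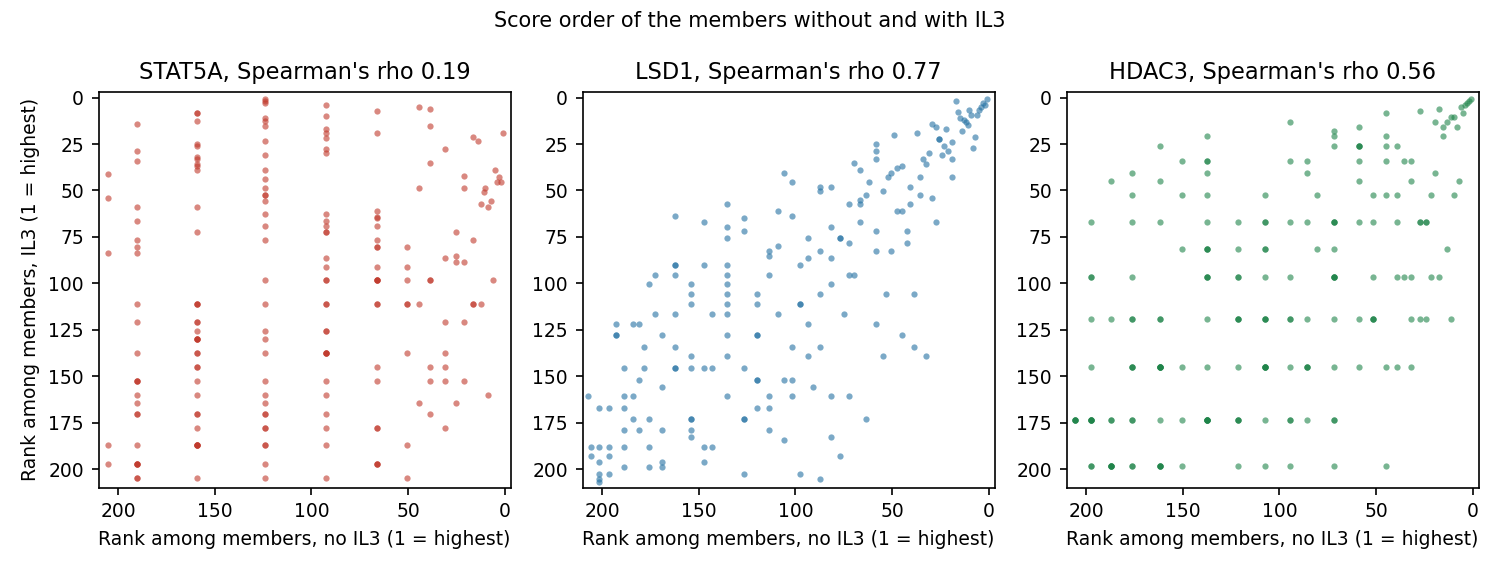
Rank of each of the 207 members by score among the members without IL3 (horizontal) and with IL3 (vertical) in the pooled lists of STAT5A, LSD1 and HDAC3; rank 1 is the highest score and lies at the upper right. Points follow the diagonal for LSD1 (rho 0.77), less so for HDAC3 (0.56) and little for STAT5A (0.19); columns and rows of points are tied scores.

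The highest members for STAT5A with IL3 were near Qrsl1 (score 470.0), Ctnnb1 (467.9), Pim1 (452.9), Maml3 (414.4) and Gsdmc (399.5). The region 4823 bp from Pim1, the gene of a survival kinase, at chr17:29500816-29501052, scored 413.9 and 570.2 in the replicates with IL3, where the second value was the highest of its list. It was called in neither replicate without IL3, and scored 18.9 in the pooled list, the 1384th rank. The region 4296 bp from Id1, which encodes an inhibitor of basic helix-loop-helix factors, at chr2:152741530-152741882, scored 391.6 and 190.1 with IL3, and 20.4 in the second replicate only without it. Of the 20 highest members with IL3, 19 were called in both IL3 replicates, and 3 had no call in a replicate without IL3. Over all members the shares were 57.5% and 27.1%, and 6.16% of all merged regions were called in both IL3 replicates. Reads of these replicates are part of the pooled library whose score chose the 20. The pooled scores of the 20 without IL3 were 14.7 to 215.8, with a median of 19.9, near the median of 20.9 over all members. Only 1 of the 20, at Lmna, lay within 1 kb of a gene end.

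Over all members, 26 had a call in both IL3 replicates of STAT5A and none without IL3 (12.6%, background 5.13%), among them those near Pim1, Maml3, Larp1 and Rbpj. The reverse pattern held for 0 members (background 0.0278%). For LSD1 both patterns held for 0 members (backgrounds 2.29% with IL3 only and 0.206% without IL3 only). For HDAC3, 15 members had a call in both replicates without IL3 but none with IL3 (7.25%, background 0.278%), including those at Gfi1b and Nfkb1, and 0 in the reverse pattern (background 0%). The HDAC3 replicates with IL3 were also the shortest pair of lists, at 683 and 234 regions. These backgrounds also count merged regions without a region of the protein's pooled lists. The STAT5A pattern with IL3 held for 1847 merged regions, where 15538 held a region of the pooled STAT5A list with IL3. The HDAC3 pattern without IL3 held for 100, where 3345 held a region of the pooled HDAC3 list without IL3. A share above the background thus need not be above that of other regions of the same list, which was not taken.

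The members with the largest differences in percentile between the conditions are named here, 3 each way for each protein. Since the lists differ in length, the differences choose the members and show no change. Higher with IL3 for STAT5A, the region near Rbpj, the gene of the NOTCH effector, scored 12.6 without and 123.9 with IL3, the region inside Abr 12.6 and 94.0, and the region inside Tox2 12.6 and 55.5, and each of the 3 had both IL3 replicates but no replicate without IL3. Lower with IL3 were those at Slc45a4 (25.1 and 15.0), 1700017B05Rik (20.9 and 15.0) and Msh6 (23.0 and 17.1), and none was called in more than 1 STAT5A replicate of either condition. For LSD1 the lower percentiles with IL3 were inside Mknk1 (86.2 and 15.4) and Pank1 (78.6 and 16.7) and near Ikzf1, the Ikaros gene (63.4 and 16.7). All 3 were called in both replicates without IL3 and in 1 with it. The higher ones were at Ercc1 (17.8 and 29.5), 1810058I24Rik (25.4 and 28.2) and Abca1, whose score was not higher (22.8 and 21.8), all called in 1 replicate without and both with IL3. For HDAC3 the higher percentiles with IL3 were at Eml4 (15.6 and 22.8), Bcar1 (15.6 and 19.3) and Nid1 (15.6 and 19.3). Of these, Eml4 was called in 0 replicates without and 1 with IL3, Bcar1 in 1 and 0, and Nid1 in 1 and 1. The lower ones were at Sik1 (46.7 and 12.3), Abca1 (40.0 and 12.3) and Dhrs4 (33.4 and 12.3), each called in 1 replicate without and 0 with IL3. Scores are those of the pooled lists without and with IL3.

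Among the orders of different lists, STAT5A with IL3 was closest to HDAC3 with IL3 (rho 0.48), and its rho with the other lists was 0.26 or less. STAT5A without IL3 was closest to HDAC3 without IL3 (0.43). LSD1 without IL3 had a rho of 0.55 with HDAC3 without IL3. With IL3, LSD1 and HDAC3 had a rho of 0.34. These values are over the same 207 members, whose libraries share cells, and are descriptions.

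Among the gene lists, that of haematopoietic transcription factors had the largest share of genes with a member. A gene was counted when the centre of a member lay inside it or within 10 kb of its ends. Of all 21883 protein-coding genes, 157 (0.717%) had a member by this measure. Of 25 genes of GATA, RUNX, ETS and related factors, 4 had one (16%): Zfpm1, Nfe2, Runx1 and Lyl1. Over the 15 hand-listed groups, 13 of 293 genes had a member (4.44%). The groups were not chosen blind to these data, and 92.5% of their genes had some merged region within 10 kb, against 59.1% of all protein-coding genes. Regions held by 5 lists lay within 10 kb of 24% of the haematopoietic factor genes and of 27.8% of the SMAD, WNT and TGF-beta genes. The share was 11.6% over the 15 groups and 2.74% of all protein-coding genes, so the nearness to such genes was not particular to the members.

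Nfe2 and Zfpm1 are described above. Runx1, a core-binding factor gene, held regions at chr16:92715540-92715803 and chr16:92801627-92801884, both inside the gene, with LSD1 scores of 76.1 and 78.6 without IL3 and 35.9 and 41.1 with IL3. A region 185 bp from an end of Lyl1, a basic helix-loop-helix factor gene, scored 33.4 for HDAC3 with IL3, rank 31. Of 25 STAT5 target genes, 2 had a member, Pim1 and Id1. Of 21 genes of the IL3 receptor and JAK-STAT signalling, 0 had one, and the nearest was 10027 bp from Jak2, just past the limit. Of the CoREST genes 1 of 19 had a member (Gse1).

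Single genes of other groups had a member. They were Ier3 of 20 immediate early genes, with STAT5A scores of 16.8 and 200.8 without and with IL3, and Smad3 of 18 SMAD, WNT and TGF-beta genes, with LSD1 scores of 225.7 and 175.8. Cdk8 was 1 of 25 Mediator and RNA polymerase II genes and Rpp25, a ribonuclease P subunit gene whose region had rank 5 in both LSD1 lists, 1 of 22 genes of non-coding RNA and its processing. Bax, a pro-apoptotic gene, was 1 of 19 survival genes, and Rps20 1 of 91 cytosolic ribosomal protein genes (1.1%). None was found for 15 B lineage genes, 15 mast cell and myeloid genes, 25 splicing genes, 22 cell cycle genes, 16 ribosome biogenesis genes, 97 core histone genes, 78 mitochondrial ribosomal protein genes and 1110 olfactory receptor genes. Beside 0.717% of all protein-coding genes, a count of 0 in lists of 97 genes or fewer does not show absence. Of the olfactory receptor genes, 2.97% had any merged region within 10 kb, against 59.1% of all protein-coding genes.

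Within 100 kb of each other lay 31 members in 14 clusters, and 176 had no other member so near. The largest clusters held 3: near Zfp36l2, at Adgrg1 and Ccdc102a, and at Cbfa2t3, the gene of a corepressor of the ETO family. Chromosome 8 held 21 members (10.1%, against 5.39% of merged regions) and chromosome 9 held 20 (9.66% against 6.57%), while the X chromosome held 1 and the Y chromosome 0. Genes that do not code for protein overlapped 41 members, and in 40 of them these were long non-coding RNA genes, such as Mirt1. The hairpin of miR-142, a microRNA of blood cells, lay 5062 bp from the member near Tspoap1 at chr11:87751678-87751926, which was called in 5 replicate lists.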

How the data were processed

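ChIP-seq libraries of STAT5A, LSD1 and HDAC3 were analysed from the region lists the authors deposited: 6 pooled lists, 1 per group, and 12 replicate lists. Per the submitters' processing notes, the tools were Trimmomatic 0.30, Bowtie2 2.1.0, Picard 1.92 and HOMER 4.8, with mm10. For the peak calling, settings, control and threshold are not stated in these sources, and the input library was not used here. The unit of the values is a score per region, as deposited by the authors, of unstated definition. In each list the low scores were whole multiples of 1 step within 0.1, and members had a median of 10 to 33 such steps in the pooled lists. What a step counts is not stated, and no measure of depth was used here.

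Regions on chromosomes 1 to 19, X and Y were merged where they overlapped by 1 bp or more. A member's score in a list was that of its highest region, and its percentile the mid-rank share of the list. Replicate support meant an overlap of 1 bp or more. Positions were those of region centres against RefSeq genes of GRCm38.p6. The promoter table covered 79.9% of protein-coding genes and none on chromosome 18, so distances to a start are partial. Shares carry 95% Wilson intervals. The sources name no test for such lists, and none was run. Alternatives changed the overlap, score threshold, distance and the libraries used. The members, gene lists and motifs were chosen with earlier results of these data known. Named genes were the 20 highest and 5 lowest members by mean percentile, those in all or no replicate lists, the 3 largest percentile differences each way with IL3 per protein, those at genes of the lists, the 2 highest regions lacking each list, and members with 2 regions of 1 list. Others were chosen after their values were seen: the highest for STAT5A with IL3, those of the replicate patterns, the printed stretches and the clusters. Values at some genes and of 1 gene list are not reported here. Merging was tested on simulated lists. Python 3.11.15, numpy 2.4.6, pandas 2.3.3, scipy 1.17.1 and matplotlib 3.10.9 were used.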

Additional observations from a re-analysis of the deposited data

How the results depend on the processing

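Of 115 alternative values for 35 results, 79 kept to the reported value, 35 moved and 1 turned round. The number of regions held by all 6 lists was 96 from the upper 50% of each list, 8 from the upper 1000, 116 from the union of each group's replicate lists, and 1 from regions of both replicate lists. With 1 library left out it ranged from 17 to 206: it was 17 without the first HDAC3 replicate with IL3, 55 without the second and 134 without the first STAT5A replicate without IL3, 77 without the first HDAC3 replicate without IL3 and 93 without the second LSD1 replicate without IL3. The share near a gene end was 9.68% where 1 base was common to all lists, 10.4% in the upper 50% of the lists, 0% for the 1 region of both replicate lists, and 7.27% to 29.4% with 1 library left out. The members' share of summed scores without their 4 highest was 4.76% and 2.33% for STAT5A without and with IL3, 3.47% and 3.41% for LSD1, and 10.1% and 19.8% for HDAC3. The number with a higher percentile with IL3 was 105 of 207 for STAT5A by whole lists and 94, a minority, among the members only, and 47 and 101 for HDAC3, whose lists differ in length. The number called in all replicate lists was 1 to 7 with 1 library left out, counts for which no background was taken. For all protein-coding genes, 104 had a member within 1 kb and 403 within 50 kb, and for the listed genes 29 within 50 kb. Fewer regions entered the sets cut by score and those with 1 library left out. The cause of the differences was not tested. No test was run that a replicate block could enter. As a comparison within blocks, chosen after seeing the data, the order of the members without and with IL3 was taken within each replicate number: rho was 0.12 and 0.22 for STAT5A in numbers 1 and 2 (48 and 96 members), 0.69 and 0.70 for LSD1 (89 and 204), and 0.46 and 0.72 for HDAC3 (123 and 11), against 0.19, 0.77 and 0.56 in the pooled lists. Whether the numbers pair the samples is not given in the sources used here. The depth of the libraries is not known here, so a missing call in a short list does not show that a protein was absent.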
